A study of Mus musculus with 18 samples.

Results

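The comparison described here asked whether the gene expression change of thymic XCR1+ dendritic cells (DCs) on maturation differed between germ-free and colonised mice. It was the change from CCR7- to CCR7+ cells in germ-free mice (GF) minus the same change in control mice (CTRL), and it used 12 of the 18 arrays of the series, 3 in each of 4 groups. All 4 groups were untreated wild-type B6 mice; CTRL mice were kept under specific pathogen free conditions and GF mice were germ-free. In both, cells were sorted from the thymus as CD11b- CD11c+ MHCII+ CD172a- XCR1+ CD8a+ and then as CD117+ CCR7- (immature) or CD117- CCR7+ (mature). The other 6 arrays came from Ifnar1-KO mice, which lack a chain of the type I interferon receptor, under the housing of the CTRL mice. They entered only the estimate of the spread and the choice of genes that move on maturation. For age, sex and the number of mice behind an array, nothing is given in the sources used here. No label states that the 3 arrays of a group came from different mice, and the p-values measure the spread between arrays only, which may be technical.

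XCR1+ DCs take up dying cells and present their antigens to CD8 T cells. In the thymus a share of them matures without infection: the cells gain the chemokine receptor CCR7, costimulators and cytokines, lose their uptake and sensing genes and stop dividing. In peripheral organs, maturation of DCs can be driven by microbial products through Toll-like receptors and NF-kB. Germ-free mice lack live microbes, so they are a usual way to ask whether a maturation programme depends on the microflora.

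Expression was tested for 19938 genes on log2 intensities, so that a difference of 1 is a 2-fold difference. Genes were called at a Benjamini-Hochberg adjusted p under 0.05 from limma. "Shown equal" means that 2 one-sided tests placed the difference of changes between -1 and 1, with the larger p adjusted over all genes. A gene that fails this test is not thereby shown to differ. To describe the genes that maturation moves without choosing them on CTRL or GF arrays, 2101 maturation genes (10.5% of those tested) were taken from the Ifnar1-KO arrays, where they were called with an absolute log2 change of at least 1. Of these, 958 rose and 1143 fell there. Genes whose change needs the type I interferon receptor would be missed by this choice, so counts of maturation genes do not cover them.

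Sex-linked genes differed between CTRL and GF in both stages. Xist, the RNA that silences an X chromosome in females, read 7.80 to 9.63 on the CTRL arrays and 3.80 to 4.37 on the GF arrays, and Kdm5d, on the Y chromosome, read 3.89 to 4.62 and 6.02 to 6.51. The 3 GF replicates were alike in this. Sex and microflora therefore cannot be told apart, either in the difference of maturation changes described here or in a direct comparison of GF with CTRL. The difference of changes was 0.49 ± 0.86 for Xist and -0.31 ± 0.27 for Kdm5d, and neither was called.

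No gene was called for a different maturation change in GF and CTRL: 0 of 19938 (0%), with a smallest adjusted p of 0.999 in limma. This p moved with single arrays: it was 0.0718 without CTRL CCR7+ replicate 2, 0.192 without GF CCR7- replicate 1 and 0.334 with array weights in limma, and no gene was called in any of these. It also depended on the Ifnar1-KO arrays, which enter the spread. In limma it was 0.468 on the 12 CTRL and GF arrays alone and 0.250 without both Ifnar1-KO replicate 2 arrays, again with no gene called. Without adjustment, 660 genes (3.31%) had a p under 0.05, 266 with a higher and 394 with a lower change in GF, where 996.9 would be below 0.05 by chance alone. The maturation change was shown equal within 2-fold for 17773 genes (89.1%) and within 1.5-fold for 11641 (58.4%). Most of those genes do not move on maturation, and 92.1% of the 17837 genes outside the maturation set were shown equal.

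Among the 2101 maturation genes, 1343 (63.9%) changed equally within 2-fold, against 89.1% of all genes tested. The other 758 were neither called different nor shown equal. The median 95% interval reached 0.94 to either side of the estimate in these 758, 0.63 in the 1343, 0.72 in all maturation genes and 0.38 over all genes. Of the 1343, 897 (42.7% of the maturation genes) were shown equal also when any 1 of the 12 arrays was left out, 482 rising and 415 falling. With only replicate 1 of GF kept, 764 of 2096 were shown equal. Within the narrower bound of 1.5-fold, 178 maturation genes (8.47%) were shown equal, 116 rising and 62 falling, against 58.4% of all genes. Of the 640 genes that moved by at least 4-fold on the Ifnar1-KO arrays, 333 (52.0%) were shown equal within 2-fold.

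The direction of the change was shared almost throughout. In CTRL and GF, 2099 of the 2101 genes had the same sign, and 1947 were called in both in the same direction, while 0 were called in opposite directions. The exceptions in sign were Zbtb22 and 2610002M06Rik, named after their values were seen, with changes that did not pass in CTRL or GF. Since cells were measured in bulk, fewer matured cells in a gate and a smaller change per cell cannot be told apart here.

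**Figure D1:**
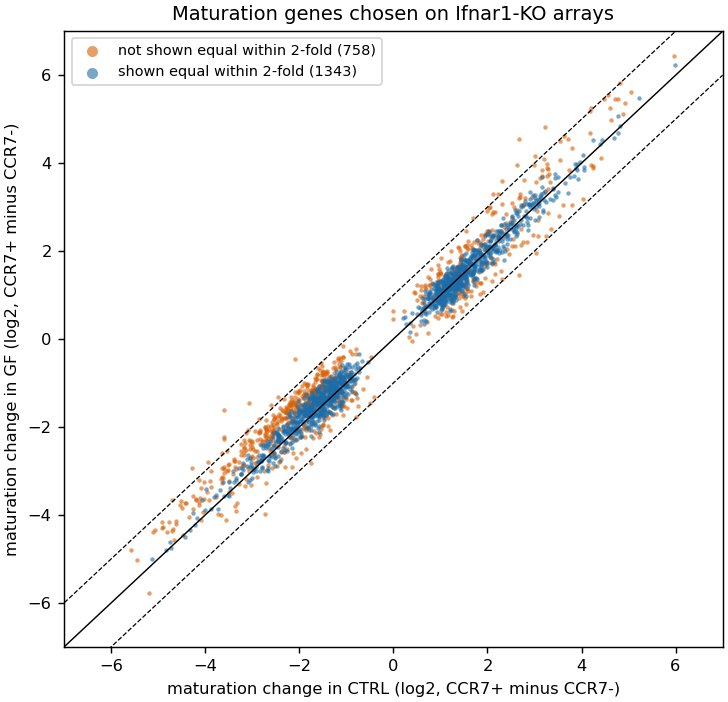
Maturation change (log2, CCR7+ minus CCR7-) of the 2101 maturation genes in CTRL on the x axis and in GF on the y axis, 1 point per gene; blue points were shown equal within 2-fold (1343) and orange points were not (758). The solid line marks equal changes and the dashed lines the 2-fold bound; the points follow the solid line over the whole range, and among falling genes orange points lie mostly above it.

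Rising genes changed by a median log2 of 1.52 in CTRL and 1.54 in GF, with a median difference of 0.05. Falling genes changed by -1.79 in CTRL and by -1.59 in GF, with a median difference of 0.21, and 73.2% of them had a positive difference against 45.2% of all genes tested. The median difference over all genes was -0.02. The fall was thus smaller in GF by the medians, but this rested on GF replicates 2 and 3. With replicate 1 as the only GF pair the median difference was -0.02 in falling and -0.08 in rising genes, and with replicates 2 and 3 only it was 0.33 and 0.11. These 2 pairs also stood apart on the second principal component (4.20% of the variance), at -12.6 and -11.4 in CCR7- and at -6.86 and -12.3 in CCR7+ cells, where CTRL and GF replicate 1 lay between 3.57 and 10.9. The component was computed on all 18 arrays and was not particular to GF. Both arrays of Ifnar1-KO replicate 2 lay farther out on the same side, at -20.9 in CCR7- and -18.0 in CCR7+ cells.

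The mean level of the falling genes was 7.99, 7.92 and 7.86 on the CTRL CCR7- arrays and 7.98, 7.77 and 7.77 on those of GF. In CCR7+ cells it was 5.96, 5.95 and 5.85 in CTRL and 5.94, 6.14 and 6.04 in GF. GF replicate 1 lay within the CTRL range in both stages, while GF replicates 2 and 3 were lower than all CTRL arrays before maturation and higher after it.

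**Figure D2:**
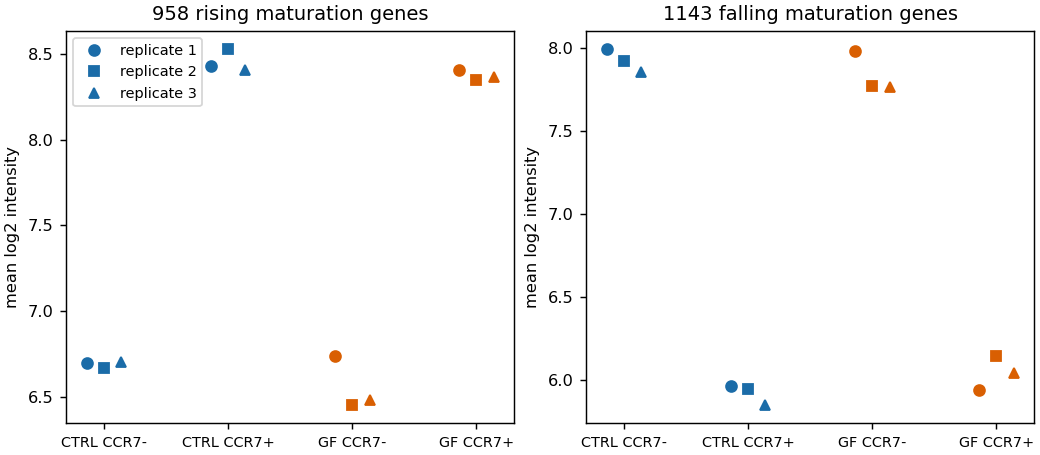
Mean log2 intensity of the 958 rising (left) and 1143 falling (right) maturation genes on each of the 12 arrays; blue marks CTRL, orange marks GF, and the symbol gives the replicate. GF replicate 1 sits close to CTRL in every group, and GF replicates 2 and 3 sit lower in CCR7- cells in both panels, at 6.45 and 6.48 for rising and 7.77 for falling genes.

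The sort genes were read first because they check the gates. Ccr7, the receptor that guides mature DCs to chemokines of T cell areas, read 9.03, 8.98 and 8.95 in CTRL CCR7- cells and 11.88, 12.04 and 12.03 in CTRL CCR7+ cells. In GF it read 9.09, 7.25 and 7.77 before and 11.96, 11.93 and 12.09 after maturation. The mature groups overlapped, and in immature cells GF replicates 2 and 3 were below all CTRL arrays. The rise was 7.98-fold in CTRL and 15.5-fold in GF, a difference of 0.96 ± 0.50 (SE, n = 3 arrays per group) that was neither called nor shown equal. Kit, which encodes CD117, fell 9.0-fold in CTRL and 7.29-fold in GF, with a difference of 0.30 ± 0.47 that was not shown equal either. H2-Ab1, an MHC class II chain, fell by 1.35-fold and 1.26-fold and was shown equal, with a 95% interval of the difference from -0.17 to 0.36. Itgam, which encodes CD11b, read between 3.67 and 3.96 on all 12 arrays.

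The genes of mature DCs moved in both kinds of mice. This list and the others below were chosen with earlier results of these data known, and this one holds the sort gene Ccr7. That its members rose is therefore no independent finding, and the counts below only describe the list. Of 29 measured members of this list, 28 rose and 1 fell in CTRL, and the same counts held in GF, against 12.6% of all genes that rose and 13.6% that fell in CTRL and 9.53% and 11.8% in GF; all 29 were called in both in the same direction. The counts in CTRL and GF over all genes were 5218 and 4256, and 3473 in CTRL without both replicate 3 arrays. Of the 29, 15 were shown equal within 2-fold (13 with any array left out), and the median difference was 0.25 against -0.02 over all genes. With GF replicate 1 alone it was -0.08.

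Stat4, a transcription factor activated by interleukin 12, had the largest rise on this list. It read 4.40, 4.13 and 4.21 in CTRL CCR7- and 10.29, 10.55 and 9.85 in CTRL CCR7+ cells. The GF values were 4.17, 3.81 and 3.96 before and 10.23, 10.20 and 10.21 after maturation. The stages lay far apart and the CTRL and GF ranges overlapped in both. The rise was 63.2-fold in CTRL and 75.3-fold in GF, with a difference of 0.25 ± 0.24 and an adjusted p of equality of 0.00573 in limma; since the immature values were near background, both folds are less certain than the rise itself. Cd40, the receptor through which T cells license DCs, rose 3.52-fold and 3.88-fold and was shown equal, with an interval from -0.33 to 0.61. Cd200, an inhibitory surface ligand, rose 9.35-fold and 10.3-fold, and Il15ra, the chain that presents interleukin 15, rose 16.3-fold and 18.3-fold. Both were shown equal, with adjusted p of 0.000594 and 0.00776 in limma.

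Other members of the list had wide intervals. Socs2, an inhibitor of cytokine signalling, read 6.09, 5.61 and 6.41 in CTRL CCR7- and 6.10, 4.07 and 4.70 in GF CCR7- cells. In CCR7+ cells it read 10.96, 10.96 and 10.65 in CTRL and 10.79, 10.68 and 10.82 in GF. Again the mature groups overlapped and GF replicates 2 and 3 were low in immature cells, so that the difference was 0.99 ± 0.52 with an interval from -0.13 to 2.11. Fscn1, which bundles actin in the dendrites of mature DCs, followed the same order: 8.48, 8.14 and 8.65 in CTRL and 8.52, 6.93 and 6.69 in GF before maturation, and 12.49 to 12.73 on the 6 arrays after it. Il12b, the p40 chain of interleukins 12 and 23, rose 6.16-fold in CTRL and 15.6-fold in GF, a difference of 1.34 ± 0.71 that was not called. Its immature values in GF were 9.24, 6.63 and 6.80, and those in CTRL 8.97, 8.99 and 9.63.

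Over the list, the mean level in immature cells was 7.65, 7.66 and 7.85 in CTRL and 7.82, 6.95 and 7.05 in GF, and in mature cells 10.70, 10.79 and 10.72 in CTRL and 10.70, 10.66 and 10.66 in GF. Mature cells of both kinds of mice thus had nearly the same mean, and the arrays that differed were immature GF replicates 2 and 3. On the immature Ifnar1-KO arrays, under the housing of CTRL, the mean was 7.16, 7.45 and 7.17.

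Chemokine and cytokine genes were shown equal in 12 of 26 (46.2%), against 89.1% of all genes; 13 rose and 6 fell in CTRL and 14 rose and 7 fell in GF, where the shares over all genes were those given for mature DC genes. Of the 29 mature DC genes, 26 had a positive difference, against 45.2% of all genes tested. This count was 11 with replicate 1 as the only GF pair and 27 with GF replicates 2 and 3 only. Ccl19, a ligand of CCR7, had the lowest difference of the 29. It read 10.12, 9.07 and 9.90 in CTRL CCR7+ cells and 9.02, 8.62 and 9.06 in GF CCR7+ cells, all 3 GF values below the CTRL values. Immature values were 5.83, 5.71 and 5.43 in CTRL and 6.06, 5.69 and 5.37 in GF and overlapped. The rise was 16.4-fold in CTRL and 9.14-fold in GF, a difference of -0.84 ± 0.33 that did not pass over all genes (adjusted p = 0.999 in limma). Ccl22, a ligand of CCR4 that draws regulatory T cells, rose 3.94-fold and 7.53-fold, with a difference of 0.93 ± 0.64. Ccl17, a further CCR4 ligand, rose 5.14-fold and 5.29-fold, but its interval from -1.09 to 1.17 just missed the bound (adjusted p = 0.0504 in limma). Il18, an inflammatory cytokine, fell 11.4-fold and 11.8-fold and was shown equal, although its mature values were near background.

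Of 22 costimulators and checkpoint ligands, 13 rose and 4 fell in CTRL and as many in GF, and 16 were called in both in the same direction. Over all genes, 12.6% rose and 13.6% fell in CTRL, and 9.53% rose and 11.8% fell in GF. The change was shown equal for 15 (68.2%, against 89.1% of all genes), 9 of them with any array left out. The checkpoint ligand gene Pdcd1lg2 rose 18.1-fold in CTRL and 36.2-fold in GF, with a difference of 1.0 ± 0.40 that was not called. Cd274, which encodes PD-L1, rose 13.2-fold and 23.2-fold with a difference of 0.82 ± 0.51. Cd86 fell slightly in both, by 1.47-fold and 1.25-fold, and was shown equal. Among 23 genes related to tolerance and regulatory T cells, 15 were shown equal (65.2%, against the same 89.1%). Itgb8, an integrin chain that activates TGF-beta, rose 11.3-fold and 12.9-fold, and Ptgs2, the inducible enzyme of prostaglandin synthesis, rose 13.4-fold and 12.8-fold. Both were equal within 2-fold, with differences of 0.18 ± 0.22 and -0.07 ± 0.33. Tgfb1, which encodes the cytokine itself, fell 5.36-fold in CTRL and 2.95-fold in GF, with a difference of 0.86 ± 0.34 that was neither called nor shown equal.

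NF-kB transcription factors are held in the cytosol by inhibitors of the IkB family until a receptor such as a Toll-like receptor, or a TNF family receptor for the RelB branch, releases them; several of their target genes encode NF-kB chains and inhibitors. All 20 measured genes of the NF-kB list rose in CTRL and all 20 in GF, against 12.6% and 9.53% of all genes. The change was shown equal for 17 of them (85.0%, 11 with any array left out), a share near the 89.1% of all genes. The median rise was 1.37 in CTRL and 1.40 in GF, with a median difference of 0.16. With GF replicate 1 alone this difference was -0.04, and with GF replicates 2 and 3 only it was 0.26. The list mean was 7.75 to 7.84 in CTRL CCR7- and 9.24 to 9.34 in CTRL CCR7+ cells. GF replicates 2 and 3 lay below, at 7.36 and 7.37, then 9.16 and 9.01, and GF replicate 1 read 7.88, then 9.33. Cflar, Tnip1 and Bcl2l1 were the members not shown equal, with differences of 0.57 ± 0.28, 0.44 ± 0.38 and 0.33 ± 0.42.

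Promoter sequence in RefSeq (GRCm38.p6) was at hand for 18 of the 20 genes. The kB consensus, searched on both strands in the 250 bases before each gene start with overlapping matches kept, was found in 7 of the 18 (38.9%) and in 5.05% of the 15614 genes tested that had a promoter. Members whose rise was equal with any array left out are shown, each 5′ to 3′ on its own strand with kB matches in capitals; those of Nfkb2 overlap in part. A match describes these letters and not binding.
Nfkb2, chr19:46304487-46304736, forward strand: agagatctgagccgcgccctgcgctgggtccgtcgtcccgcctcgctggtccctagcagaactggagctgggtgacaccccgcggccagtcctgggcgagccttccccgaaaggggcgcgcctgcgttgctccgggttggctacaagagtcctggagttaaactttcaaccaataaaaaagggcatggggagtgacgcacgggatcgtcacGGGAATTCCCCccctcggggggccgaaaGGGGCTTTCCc
Nfkbia, chr12:55492648-55492897, reverse strand: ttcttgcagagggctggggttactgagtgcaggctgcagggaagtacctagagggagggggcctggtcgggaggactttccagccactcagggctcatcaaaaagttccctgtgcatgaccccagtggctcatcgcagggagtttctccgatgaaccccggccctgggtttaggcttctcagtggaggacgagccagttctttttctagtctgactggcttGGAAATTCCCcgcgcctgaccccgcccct
Nfkbie, chr17:45555450-45555699, forward strand: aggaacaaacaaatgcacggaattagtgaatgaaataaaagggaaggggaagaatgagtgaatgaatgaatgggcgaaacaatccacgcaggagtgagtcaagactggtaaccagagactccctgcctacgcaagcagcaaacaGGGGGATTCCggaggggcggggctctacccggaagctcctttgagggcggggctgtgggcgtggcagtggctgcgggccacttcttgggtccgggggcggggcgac

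Nfkb2, which encodes the p100 precursor of the p52 subunit, read 8.10, 7.85 and 7.85 in CTRL CCR7- and 9.67, 9.72 and 9.96 in CTRL CCR7+ cells. In GF it read 7.95, 7.46 and 7.48, then 9.91, 9.65 and 9.30. The CTRL and GF ranges overlapped in both stages, and the rise was 3.60-fold and 3.98-fold, with an interval of the difference from -0.39 to 0.68. Nfkbia, which encodes the inhibitor IkB-alpha, rose 2.14-fold and 2.66-fold, with a difference of 0.31 ± 0.27. Nfkbie, which encodes IkB-epsilon, rose 2.31-fold and 2.22-fold, with an interval from -0.60 to 0.49, and was equal within 1.5-fold as well (adjusted p = 0.0490 in limma). Relb, the partner of p52, rose 7.42-fold and 8.46-fold and was shown equal, as was Rela, which rose 2.41-fold in both with a difference of 0.00 ± 0.19.

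Among genes that moved by at least 4-fold on the Ifnar1-KO arrays, 6 with the intervals closest to 0 give the tightest statement of equality. Predicted genes, clones and small RNAs were left out of this choice. All 6 were equal within 1.5-fold as well, which is no further finding since they were chosen for narrow reach. Of all 640 genes that moved by at least 4-fold there, 36 were equal within 1.5-fold. Glcci1, a glucocorticoid-induced transcript, rose 6.10-fold in CTRL and 5.75-fold in GF, with an interval from -0.44 to 0.27. Vwa5a rose 5.51-fold and 5.64-fold, with an interval from -0.33 to 0.39. Anxa4, a calcium-dependent membrane-binding protein, read 8.77 on all 3 CTRL CCR7- arrays and 10.84, 10.80 and 10.97 in CTRL CCR7+ cells. In GF it read 9.03, 8.61 and 8.52, then 10.69, 10.89 and 10.80. The ranges overlapped in both stages, and the rise was 4.28-fold and 4.22-fold. Gtpbp1, Cytip, which regulates adhesion of leukocytes, and Sqstm1, the autophagy receptor p62, rose 3.92-fold, 3.84-fold and 3.80-fold in CTRL and 4.25-fold, 4.46-fold and 3.72-fold in GF. At the other end, the intervals that reached farthest from 0 belonged to H2-M2, Cd63, Hmgn5, Cenpf, Atxn1 and Rag1. Such a reach grows with the difference as well as with the width. Cd63, a tetraspanin of endosomes, rose 6.35-fold in CTRL and 23.4-fold in GF, but its interval ran from 0.02 to 3.74, and its immature GF values were 9.57, 6.57 and 6.55. H2-M2, a non-classical MHC class I gene, rose 9.40-fold and 28.3-fold, with immature GF values of 7.82, 5.07 and 6.01 against 8.39, 7.54 and 8.79 in CTRL.

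Just inside the equality threshold lay Stap1 and Btla, both with an adjusted p of 0.0499 in limma, and just outside it H2-Q4 and Lman1, at 0.0503 and 0.0502. Their differences were 0.10, 0.18, -0.33 and 0.26, so the line separates genes of like values.

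**Figure D3:**
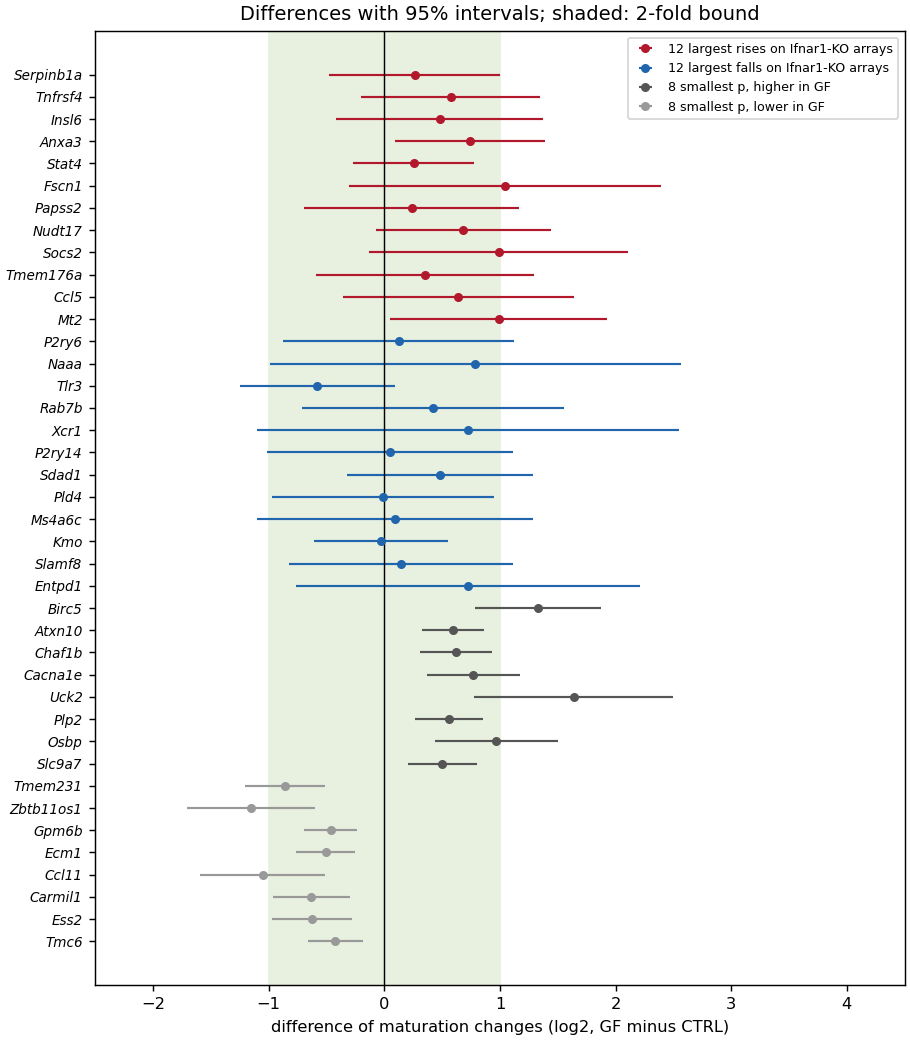
Difference of maturation changes (log2, GF minus CTRL, x axis) with 95% intervals for the 12 genes that rose most and the 12 that fell most on the Ifnar1-KO arrays and for the 8 genes with the smallest p in each direction; the shaded band is the 2-fold bound. Most intervals of the strongest rising and falling genes cross 0, but most also leave the band, such as Fscn1 with -0.30 to 2.39. Predicted genes, clones and small RNAs were left out of these rankings.

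The 12 genes that rose most on the Ifnar1-KO arrays rose at least 18.4-fold in CTRL and at least 31.5-fold in GF. Stat4 and Serpinb1a, a protease inhibitor, were shown equal, the latter no longer when any of 5 single arrays was left out (highest adjusted p = 0.083 in limma). The difference was positive in all 12, from 0.24 ± 0.43 for Papss2, which makes the sulfate donor of the cell, to 1.04 ± 0.63 for Fscn1. It was positive in 45.2% of all genes tested and in 56.8% of the 958 rising maturation genes. With replicate 1 as the only GF pair, 384 of these 958 were positive, with a median of -0.08. Mt2, a metallothionein, had an interval from 0.05 to 1.93 and Anxa3 from 0.10 to 1.39, and neither was called over all genes.

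Among the 12 genes that fell most, Kmo was the firmest. Kmo, an enzyme of tryptophan breakdown along the kynurenine path, read 8.72, 8.86 and 8.91 in CTRL CCR7- and 3.85, 4.23 and 4.25 in CTRL CCR7+ cells. The GF values were 9.07, 8.88 and 9.09 before and 4.20, 4.51 and 4.07 after maturation. The ranges overlapped in both stages. The fall was 26.4-fold in CTRL and 27.0-fold in GF, and the difference of -0.03 ± 0.27 was equal within 2-fold also with any array left out. The mature values were near background, here taken as up to 4.62, the highest CTRL value of the Y-linked gene Kdm5d, so the size of the fall is less certain in both. Pld4, a nuclease of the endosome that degrades single-stranded nucleic acids, fell 18.6-fold and 18.7-fold, and P2ry6, P2ry14 and Slamf8 fell by 24.4-fold to 35.0-fold in each. These 4 were shown equal on all arrays, but lost this when single arrays were left out: in 6 of the 12 cases for Pld4, in 11 for P2ry6, in 10 for Slamf8 and in all 12 for P2ry14, with adjusted p of at most 0.123 in limma.

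Genes of XCR1+ DC identity fell in 22 of 28 in CTRL and in 21 of 28 in GF, while 3 rose in each, and 13.6% of all genes fell in CTRL and 11.8% in GF. The change was shown equal for 16 (57.1%, against 89.1% of all genes), 11 of them with any array left out. The median difference was 0.23, and 0.05 with GF replicate 1 alone. Irf8, a transcription factor that XCR1+ DCs need, did not pass in either and was shown equal, at -0.06 ± 0.20. Clec9a, the receptor for dead cells, fell 6.42-fold and 5.39-fold and was shown equal, but not without CTRL CCR7+ replicate 2 or GF CCR7+ replicate 1 (adjusted p up to 0.0585 in limma). Snx22, a sorting nexin, fell 7.0-fold and 6.89-fold and was shown equal with any array left out. Xcr1, the receptor that names these cells, read 11.56, 11.52 and 11.44 in CTRL and 11.42, 11.46 and 11.28 in GF before maturation. After it, CTRL read 6.42, 6.48 and 6.30 and GF 6.44, 7.97 and 6.60. GF CCR7+ replicate 2 was the high array, and the difference of 0.72 ± 0.85 was not shown equal. The same array was the highest of the 6 mature arrays for Naaa, a lysosomal amidase, at 8.0, for Entpd1, which encodes the ectonucleotidase CD39, at 6.75, and for Itgax, which encodes CD11c, at 8.09.

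Sensors of microbes and their adaptors were taken as a list because they could link the microflora to maturation. Of 37 measured, 3 rose and 14 fell in CTRL, against 12.6% and 13.6% of all genes, and 4 rose and 14 fell in GF, against 9.53% and 11.8%; 15 were called in both in the same direction. The change was shown equal for 29 of them, 78.4% against 89.1% of all genes, and the median difference was 0.05. Tlr9, the endosomal sensor of bacterial and other DNA, fell 1.51-fold in CTRL and 1.35-fold in GF. Tlr12, which with Tlr11 senses profilin of protozoa, fell 3.97-fold and 3.67-fold. Unc93b1, the chaperone of endosomal Toll-like receptors, fell 2.78-fold and 3.10-fold, and the inflammasome sensor gene Nlrp3 fell 3.57-fold and 3.32-fold. Each of these 4 was shown equal with any array left out. Myd88, the adaptor of most Toll-like receptors, fell 3.22-fold and 2.54-fold and was shown equal, but not when any of 5 single arrays was left out.

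Tlr3, the sensor of double-stranded RNA and a marker of XCR1+ DCs, had the largest fall of the sensors in both kinds of mice. It read 9.70, 9.66 and 9.47 in CTRL CCR7- and 4.90, 4.28 and 4.07 in CTRL CCR7+ cells, then 9.79, 9.91 and 9.70 and 3.85, 4.16 and 4.06 in GF. The immature GF values lay just above those of CTRL, with 9.70 at the border of both, and the mature ranges overlapped. The fall was 36.7-fold in CTRL and 54.7-fold in GF, and the difference of -0.58 ± 0.31 was neither called nor shown equal. The extreme members were Nlrp1b, an inflammasome sensor, at 1.79 ± 0.75, and Tlr4, the receptor for bacterial lipopolysaccharide, at -0.64 ± 0.26. Nlrp1b read 5.52, 7.33 and 6.89 in CTRL CCR7- cells and 5.62, 4.27 and 4.47 in GF CCR7- cells, while all mature values lay between 4.03 and 4.29. Tlr4 read 4.22, 4.11 and 4.23 in CTRL CCR7- and 4.41, 5.31 and 4.55 in GF CCR7- cells, and its mature values of 3.27 to 3.49 were at background. Neither was called.

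Receptors and targets of microbial metabolites gave 22 equal calls among 26, 21 with any array left out, a share of 84.6% that was near the 89.1% of all genes, and a median difference of -0.04. In CTRL 5 rose and 6 fell, against 12.6% and 13.6% of all genes, and in GF 1 rose and 6 fell, against 9.53% and 11.8%. Several of them were low on all arrays, where equality says little. Rara, a retinoic acid receptor, fell 2.34-fold and 2.06-fold, and Ffar2, a receptor for short-chain fatty acids made by gut bacteria, fell 1.79-fold and 1.73-fold; both were shown equal with any array left out. Ahr, the receptor for aryl hydrocarbons that include bacterial indoles, was the highest of the list. It read 8.44, 9.03 and 8.75 in CTRL CCR7- and 6.37, 6.72 and 6.29 in CTRL CCR7+ cells. In GF it read 8.79, 8.44 and 8.24 before and 6.80, 6.96 and 7.10 after maturation, so that all mature GF values were above those of CTRL while the immature ranges overlapped. The fall was 4.85-fold in CTRL and 2.90-fold in GF, with a difference of 0.74 ± 0.27 that was not called over all genes. Of its target genes, Tiparp fell 2.58-fold and 2.07-fold, with a difference of 0.32 ± 0.38 that was not shown equal, while Cyp1a1 and Cyp1b1 were near background on all 12 arrays. Vdr, the vitamin D receptor, was the lowest member, at -0.69 ± 0.47.

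Genes stimulated by type I interferon moved both ways on maturation, 7 up and 11 down of 36 in CTRL and 7 up and 10 down in GF, where 12.6% and 13.6% of all genes moved up and down in CTRL and 9.53% and 11.8% in GF. The change was shown equal for 24 of the 36 (66.7%, against 89.1% of all genes). The median difference was 0.11, and -0.10 with GF replicate 1 alone. Epsti1 rose 8.93-fold and 11.0-fold and was shown equal with any array left out. Ifit3, which binds viral RNA complexes, had the highest difference of the list, 1.5 ± 0.54. Its mature values were 5.30, 5.0 and 5.78 in CTRL and 5.63, 6.23 and 7.73 in GF, so that the groups overlapped and GF replicate 3 stood out. Among genes of antigen presentation, the change was shown equal for 12 of 14 genes of the MHC class II pathway (85.7%) and 16 of 19 of the MHC class I pathway (84.2%), shares near the 89.1% of all genes. Nlrc5, the transactivator of MHC class I genes, was the lowest of the latter, at -0.82 ± 0.54.

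**Figure D4:**
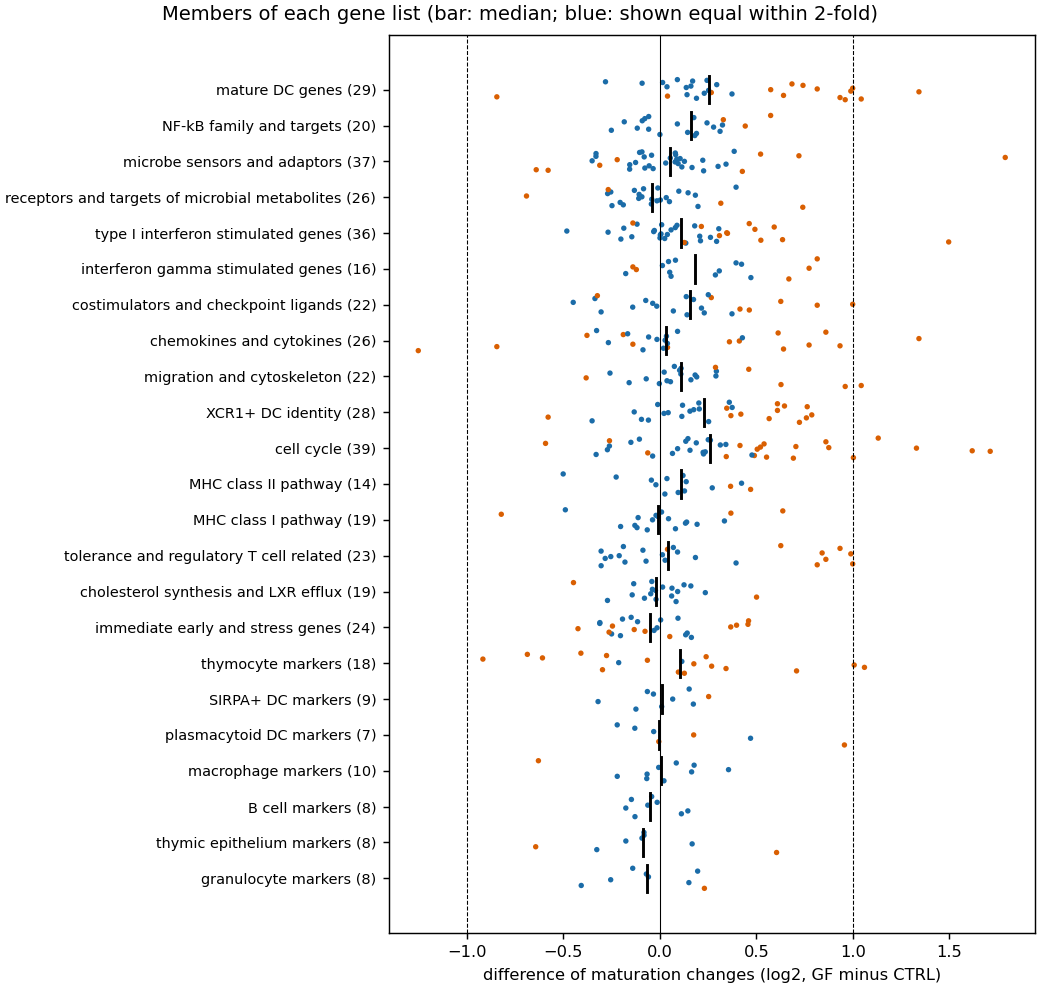
Difference of maturation changes (log2, GF minus CTRL, x axis) of every measured member of 23 of the 26 gene lists, with the number of members in parentheses; blue points were shown equal within 2-fold, orange points were not, and the bar is the median of the list. The medians of these 23 lie between -0.09 and 0.26, inside the dashed lines of the 2-fold bound; sort genes (0.33), sex-linked genes (0.22) and erythroid markers (-0.20) are not drawn.

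Cell cycle genes fell on maturation in both kinds of mice. Of 39 cell cycle genes, 36 fell in CTRL and 32 in GF, 32 of them in both, and none rose in either, while 13.6% of all genes fell in CTRL and 11.8% in GF. The change was shown equal for 20 (51.3%, against 89.1% of all genes), 13 with any array left out, and the median difference was 0.26. With GF replicate 1 alone it was 0.03. The mean level in immature cells was 8.05, 7.98 and 7.96 in CTRL and 8.15, 7.63 and 7.58 in GF, so again GF replicates 2 and 3 were below all CTRL arrays. In mature cells it was 5.67, 5.50 and 5.37 in CTRL and 5.69, 5.74 and 5.59 in GF.

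Many genes of late cell cycle phases carry a CHR element, TTTGAA, near their start. It was found on either strand in the 250 bases before the start in 8 of the 33 cell cycle genes with a RefSeq promoter (24.2%) and in 15.7% of the 15614 genes tested with a promoter. The promoters of Cdk1, shown equal, and Top2a, not shown equal, both held 2 matches and are given with these in capitals.
Cdk1, chr10:69352913-69353162, reverse strand: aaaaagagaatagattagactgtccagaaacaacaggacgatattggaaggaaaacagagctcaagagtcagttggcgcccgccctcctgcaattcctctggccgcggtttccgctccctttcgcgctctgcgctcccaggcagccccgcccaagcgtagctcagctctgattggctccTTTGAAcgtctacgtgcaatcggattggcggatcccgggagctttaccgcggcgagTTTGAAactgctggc
Top2a, chr11:99024190-99024439, reverse strand: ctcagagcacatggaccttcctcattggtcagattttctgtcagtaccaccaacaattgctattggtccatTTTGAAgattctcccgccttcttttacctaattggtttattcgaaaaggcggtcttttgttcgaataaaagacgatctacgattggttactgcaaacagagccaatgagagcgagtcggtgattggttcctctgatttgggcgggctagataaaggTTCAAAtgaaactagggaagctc

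Cdk1, the kinase that starts mitosis, read 8.97, 9.17 and 8.93 in CTRL CCR7- and 7.23, 7.30 and 7.25 in CTRL CCR7+ cells, and 9.24, 8.90 and 8.74 and then 7.61, 7.68 and 7.73 in GF. All mature GF values were above the CTRL values. The fall was 3.40-fold in CTRL and 2.44-fold in GF, and the difference of 0.48 ± 0.18 lay between 0.10 and 0.85, within the 2-fold bound. Top2a, the topoisomerase that untangles chromosomes, fell 11.7-fold and 5.83-fold, with a difference of 1.0 ± 0.36. Bub1b, a kinase of the spindle checkpoint, fell 11.2-fold and 10.5-fold and was shown equal with any array left out. Cenpe and Cenpf, proteins of the kinetochore, had the highest estimates, 1.71 ± 1.19 and 1.62 ± 0.88. Cenpe read 8.04, 4.79 and 5.31 on the immature GF arrays against 7.77, 7.97 and 7.87 in CTRL, and 3.95 to 4.20 on all mature arrays. Its estimate thus came from the same pair of immature arrays.

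Predicted genes, clones and small RNAs were left out of the ranking by p. In it, Birc5, which encodes the inhibitor of apoptosis and mitotic protein survivin, came first among genes with a higher change in GF. It read 8.99, 9.22 and 9.01 in CTRL CCR7- and 9.33, 9.16 and 8.63 in GF CCR7- cells, which overlapped. In CCR7+ cells it read 5.79, 5.38 and 5.27 in CTRL and 6.57, 6.80 and 6.95 in GF, with no overlap. The fall was 12.1-fold in CTRL and 4.81-fold in GF, a difference of 1.33 ± 0.25 that did not pass (adjusted p = 0.999 in limma), and it stayed between 0.84 and 1.58 in the other settings tried. Uck2, a kinase of pyrimidine salvage, read 8.79, 8.35 and 8.26, then 6.29, 6.40 and 6.46 in CTRL, and 8.23, 8.04 and 7.86, then 7.93, 7.39 and 7.47 in GF. Its fall of 4.24-fold in CTRL was called and that of 1.36-fold in GF was not, and the difference of 1.64 ± 0.40 was not called. Osbp, an oxysterol-binding protein, changed by -0.64 in CTRL and 0.33 in GF, a difference of 0.97 ± 0.25. The other genes of this rank were Atxn10, Chaf1b, a chain of the chromatin assembly factor that follows replication, Cacna1e, Plp2 and Slc9a7, with differences of 0.50 to 0.77. Atxn10, Chaf1b, Plp2 and Slc9a7 were shown equal within 2-fold.

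In the same ranking, Tmem231, a protein of the ciliary base, had the smallest p of the genes with a lower change in GF. It read 4.72, 4.70 and 4.63 in CTRL CCR7- and 5.30, 5.50 and 5.50 in GF CCR7- cells, and 4.0 to 4.31 on the mature arrays, where the groups overlapped. The difference was -0.86 ± 0.16 at levels near background. Ccl11, the chemokine eotaxin, read 5.65, 5.77 and 5.69 in CTRL CCR7+ and 4.67, 4.79 and 5.11 in GF CCR7+ cells, without overlap, and 4.37 to 4.86 in immature cells of both. Its rise of 2.27-fold in CTRL was called, that of 1.09-fold in GF was not, and the difference of -1.05 ± 0.25 was not called. Zbtb11os1, Gpm6b, Ecm1, Carmil1, Ess2 and Tmc6 followed, with differences from -1.15 to -0.42. Gpm6b, Ecm1, Carmil1 and Ess2 were among those shown equal within 2-fold. None of these 16 genes was called for the difference with any other setting in which it was tested, and none changed sign.

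**Figure D5:**
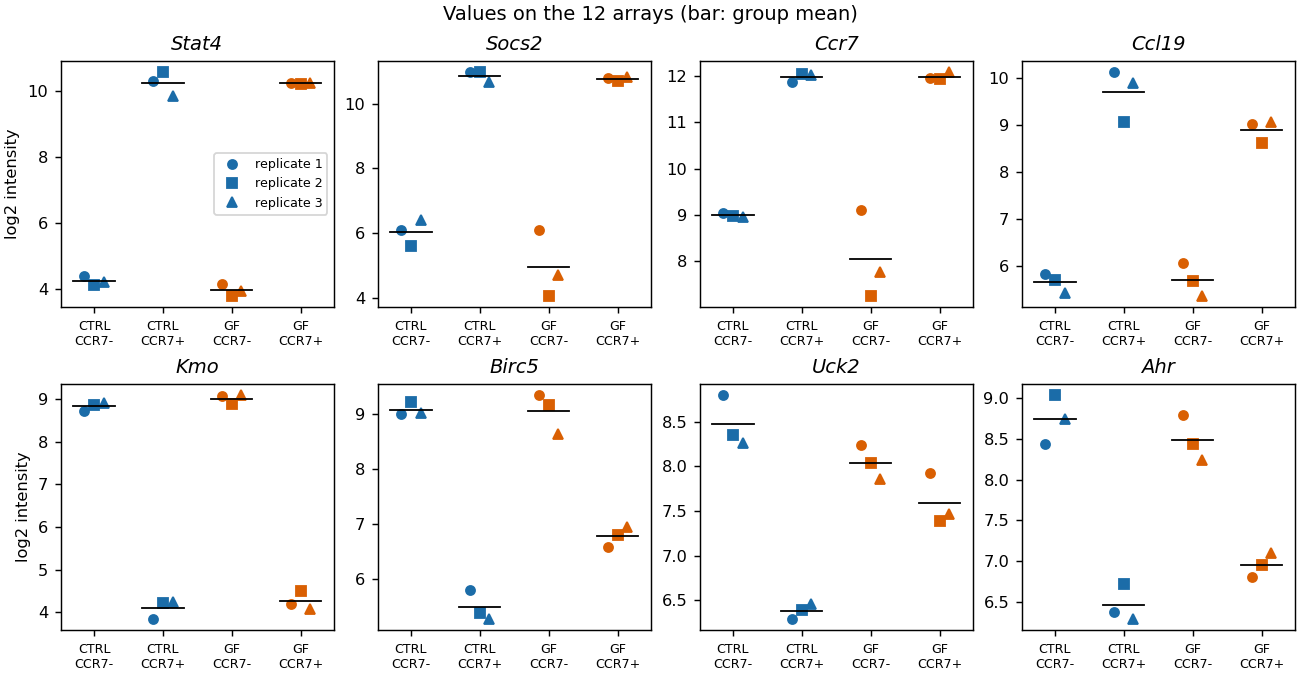
Log2 intensity (y axis) of 8 genes on the 12 arrays by group; blue is CTRL, orange is GF, the symbol gives the replicate and the bar the group mean. For Socs2 and Ccr7 the mature groups coincide and GF replicates 2 and 3 are low in immature cells, whereas for Birc5 and Ahr the 3 mature GF values lie above the 3 of CTRL and for Ccl19 below them.

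Markers of other cells were read on the same arrays. The mean of 18 thymocyte markers was 4.66 to 5.12 in CTRL CCR7- and 4.79 to 5.02 in GF CCR7- cells, and 6.30, 5.55 and 6.40 in CTRL CCR7+ and 5.76, 6.52 and 6.11 in GF CCR7+ cells. Of these markers 5 rose in CTRL and 3 in GF, against 12.6% and 9.53% of all genes, and none fell. The change was shown equal for 2 of them (11.1%, against 89.1% of all genes), and the median difference was 0.11. Rag1, the recombinase of developing lymphocytes, read 7.09, 5.63 and 5.57 in CTRL CCR7+ and 6.0, 8.40 and 7.55 in GF CCR7+ cells. The highest GF value of both the marker mean and Rag1 was on GF CCR7+ replicate 2, the array that was also highest for Xcr1. The part of thymocyte RNA in these results was not tested. All 8 B cell markers were shown equal, against 89.1% of all genes, with means of 3.85 to 4.01 on the 12 arrays. These means lay below the background level of 4.62, where equality says little. On the Ifnar1-KO arrays that chose the maturation genes, the thymocyte mean of CCR7+ replicate 2 was 8.22, against 5.61 and 5.99 on the other 2 mature arrays. Of the 18 thymocyte markers, 4 were among the maturation genes, against 10.5% of all genes tested.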

How the data were processed

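The authors deposited log2 intensities of 35556 probesets on 18 Affymetrix mouse arrays, made with RMA in the oligo package per the submitters' processing notes with versions and joint or separate normalisation not given in the sources used here. Amplification used the NuGEN Ovation Pico kit, per the labels' protocols. The 21789 probesets with exactly 1 gene symbol in GEO's platform annotation were kept (1621 had several, 12146 none), and per gene the one with the highest mean over the 18 arrays, which gave 19938 genes. Arrays have no read depth; their number limits precision. Array codes of all GF, of CTRL replicate 1 and of Ifnar1-KO replicates 2 and 3 end in an r of unstated meaning.

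limma 3.58.1 (R 4.3.3) fitted 6 group means to 18 arrays, with 12 residual degrees of freedom and 14.4 after eBayes, so 1 spread per gene was shared by all groups. Equality used 2 one-sided moderated tests against the bound. Fitting and equality functions were tested on simulated data. Genes named are the 8 smallest p per direction, the 12 largest rises and falls on Ifnar1-KO arrays, the 6 narrowest and widest intervals among 4-fold genes, and from each gene list the extreme members; other list members named were chosen after their values were seen. The maturation genes, the 26 gene lists and the comparison were chosen with earlier results of these data known. Promoters were searched with Python 3.11.15; figures used matplotlib 3.10.9.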

Additional observations from a re-analysis of the deposited data

Results flagged for a closer look

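Ess2, a nuclear protein linked to splicing, and Tmc6, a transmembrane channel-like protein, were among the genes with the smallest p, and their stages separated in opposite directions in CTRL and GF. Ess2 read 6.45, 6.50 and 6.47 before and 6.86, 6.73 and 6.87 after maturation in CTRL, and 6.79, 6.68 and 6.54 before and 6.54, 6.49 and 6.15 after it in GF. Its difference of changes was -0.62 and was shown equal within 2-fold, but not without GF CCR7- replicate 3 or GF CCR7+ replicate 1. Tmc6 changed by 0.19 ± 0.08 in CTRL and -0.23 ± 0.08 in GF, with a difference of -0.42. Neither difference passed over all genes (adjusted p = 0.999 in limma), and 22 of the 19938 genes had stages separated in opposite directions.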

How the results depend on the processing

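No gene was called for the difference in 28 of 29 other settings, and 260 to 1311 genes were under an unadjusted p of 0.05. The exception kept replicate 1 as the only GF pair, a choice made after seeing the data, with 1 array in each GF stage assumed to vary like the other groups: it called 4 genes, all small RNA genes high on the single GF CCR7+ array (Mir340, Mir107, Snora62 and Mir425, with the smallest adjusted p at 0.000696 in limma), showed 764 maturation genes equal and called 2281 genes in GF. With only arrays whose code ends in r, 382 maturation genes of 1583 were shown equal and 1251 genes were called in CTRL. Among genes at or above the median level 7765 (77.9%) were shown equal. The bound of 1.5-fold gave 11641 genes and 178 maturation genes, and genes of at least 4-fold change gave 333. Leaving out single CTRL or GF arrays, or both arrays of 1 CTRL or GF replicate, gave 3473 to 5311 calls in CTRL, 1011 to 1272 maturation genes shown equal and 0 called differences. Without both Ifnar1-KO replicate 2 arrays, 5829 genes were called in CTRL and 1645 of 2232 maturation genes were shown equal. On the 12 CTRL and GF arrays alone, 801 genes were under an unadjusted p of 0.05. There 1487 of the 2101 maturation genes (70.8%) were shown equal. With a replicate block, 18294 genes and 1501 maturation genes were shown equal, 900 were under an unadjusted p of 0.05 and 0 were called; it moved none of these counts by over 1.5 times. Deviations of same-numbered arrays correlated at 0.188, 0.147 and 0.100 in CTRL, 0.267, 0.00354 and 0.0296 in GF and 0.284, 0.321 and 0.236 in Ifnar1-KO. All 12 CTRL and Ifnar1-KO arrays, but 2 of the 6 GF arrays, correlated best with their own number. The labels state no block, so the main fit did not take the numbers as pairs. Whether same-numbered arrays shared a preparation is not given. A GF pair in this text means only the 2 arrays of the same number. Centred on their medians, arrays gave a median difference of 0.25 in falling and 0.09 in rising genes. Maturation genes chosen on CTRL arrays gave 1509 of 2387 shown equal (63.2%). The 443 values of the 16 genes named for their difference never changed sign.

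The shared spread understates the error where 1 group varied more: the SD of Ccr7 was 0.95 in GF CCR7- and 0.04 in CTRL CCR7- cells. With 3 arrays per group, the median interval of 0.72 to either side in maturation genes cannot separate a difference under 1.5-fold from none.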

Other observations

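On the GF CCR7+ replicate 1 array, 11 genes were at least 1 log2 unit above all 17 other arrays, and 6 of them were small RNA genes (54.5%), against 1.78% of the genes tested. Mir107 read 7.04 there and 3.94 to 4.38 on the other 11 CTRL and GF arrays. GF CCR7+ replicate 3 had 14 such genes and 0 small RNA genes among them. Both arrays of Ifnar1-KO replicate 2 had the most, 38 in CCR7- and 31 in CCR7+ cells, with 1 and 0 small RNA genes.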
